A study of Mus musculus with 19 samples.

Results

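The genes described here are 54 listed genes of the secretory pathway and the unfolded protein response, chosen by name and read on mouse expression arrays as the mean over each gene's own probe sets. Of these, 52 were measured among 19938 genes, with 15 in protein folding, 13 in entry into the endoplasmic reticulum (ER), 11 in traffic between ER and Golgi, 7 regulators and 6 in degradation. Sec61g, which lay on probe sets shared with other genes, and Kdelr2 were not analysed here. These genes, and the further gene lists below, were chosen with earlier results of these data known. Their counts against all genes are therefore no independent test.

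The arrays carried total RNA of endothelial cells sorted from lymphoid tissues of BALB/c mice aged 6 to 8 weeks, with males and females mixed in equal parts. High endothelial cells (HEC), which line the venules where lymphocytes leave the blood, came from Peyer's patches (3 arrays), mesenteric lymph nodes (4 arrays) and peripheral lymph nodes (4 arrays). Capillary endothelial cells came from the same tissues on 3, 2 and 3 arrays, giving 11 HEC and 8 capillary arrays in all. The mesenteric HEC were sorted by 2 gates, MAdCAM1+/PNAd+ on 2 arrays (numbered 1 and 2) and MAdCAM1+ on 2 arrays (numbered 3 and 4), where MAdCAM1 is the mucosal addressin and PNAd the peripheral node addressin. The labels give no gate for the other sorts and leave unstated whether replicate arrays stem from different animals or different sorts. The p-values therefore reflect only how much these samples vary, and that variation may be technical. The series title places the work in lymphocyte homing, and the comparison of the 2 endothelia asks how their transcript programmes differ.

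Proteins bound for the cell surface or for secretion enter the ER through the Sec61 channel, lose their signal peptide, fold with the help of chaperones and leave in COPII-coated vesicles, while COPI-coated vesicles carry escaped ER proteins back. When folding demand exceeds capacity, the sensors IRE1 (encoded by Ern1), ATF6 and PERK start the unfolded protein response. IRE1 activates XBP1, which together with cleaved ATF6 induces chaperones, translocation and degradation genes, whereas PERK acts through ATF4 and CHOP (encoded by Ddit3). High endothelial cells are plump cells with a prominent Golgi that make sulfated mucin-like ligands for L-selectin.

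To set promoter elements of this response beside the values, promoter windows of 300 bases (250 before to 50 after the start, RefSeq, build GRCm38.p6) were searched on both strands. The window was held for 43 of the 54 genes. The first set shows the stretches with the XBP1-type element UPRE (TGACGTGG) in the 3 genes that held it, with the element in capitals. Each line is written 5′ to 3′ on the gene's own strand, and in Kdelr3 and Copb1 the element lies on the opposite strand and so reads CCACGTCA.
Kdelr3 UPRE: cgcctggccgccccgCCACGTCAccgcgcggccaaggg
Sec24d UPRE: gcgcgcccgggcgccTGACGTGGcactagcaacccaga
Copb1 UPRE: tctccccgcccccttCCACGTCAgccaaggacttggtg
The Kdelr3 stretch lies at chr15:79516363-79516400 on the plus strand, the Sec24d stretch at chr3:123267455-123267492 on the plus strand and the Copb1 stretch at chr7:114254686-114254723 on the minus strand. The element began 30, 26 and 28 bases upstream of the start in Kdelr3, Sec24d and Copb1.

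The second set shows the ER stress response element ERSE, CCAAT and CCACG separated by any 9 bases, in 4 of the 9 genes that held it. Pdia6 and Syvn1 are shown because they are named for their differences below, Hspa5 because it is the classical target, and Derl3 because it was not called. Capitals mark both parts of the element, which in Derl3 lies on the opposite strand and so reads CGTGG and ATTGG.
Pdia6 ERSE: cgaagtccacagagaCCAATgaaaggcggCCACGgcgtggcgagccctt
Syvn1 ERSE: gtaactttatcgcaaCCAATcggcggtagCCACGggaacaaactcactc
Hspa5 ERSE: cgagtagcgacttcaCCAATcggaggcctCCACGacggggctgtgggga
Derl3 ERSE: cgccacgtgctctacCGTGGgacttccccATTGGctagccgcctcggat
These stretches lie at chr12:17266476-17266524 (Pdia6), chr19:6046517-6046565 (Syvn1), chr2:34772010-34772058 (Hspa5) and chr10:75893227-75893275 (Derl3), all on the plus strand and all upstream of the start.

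The labels were checked against marker genes, given as the lowest to highest array mean of each list in log2 units. Of 8 high endothelial markers 7 were higher in HEC (array means of 2.85 to 3.45, against -0.77 to 1.12 in capillary cells), and of 10 capillary markers 9 were lower and 1, Lpl, higher (-0.18 to 0.55 in HEC, against 2.97 to 3.74). The pan-endothelial list gave 11 lower and 1 higher, Vwf, among 15 (-0.23 to 0.25, against 0.51 to 0.70). The pericyte list gave 8 lower and 1 higher among 10 (-0.82 to -0.38, against -0.19 to 1.13). Fibroblastic reticular markers gave 0 higher and 1 lower of 10 (-0.24 to 0.16, against -0.12 to 0.43), and macrophage and dendritic markers 1 higher and 1 lower of 10 (-0.11 to 0.40, against -0.19 to 0.70). Peyer's patch HEC arrays 2 and 3 differed most of any replicate pair, with an SD of their differences of 0.450 over all genes, against 0.196 to 0.312 in the other pairs.

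HEC held more transcript of most of the pathway than capillary cells. In the mean difference over the 3 tissues, 42 of 52 members were higher in HEC, 2 were lower and 8 were not called at an adjusted p of 0.05 in a limma fit over all 19938 genes. Among all genes tested, 18% were called higher and 15.9% lower. The members' median log2 difference was 0.51, against -0.01 over all genes, and 48 members against 46.3% of all genes had a positive difference. The highest were the retrieval receptor Kdelr3 and the sensor Ern1, and the members called lower were Ddit3 and Atf4, both of the PERK branch. Each probe set's log2 signals were centred, so the values compare arrays and not genes, and the array method compresses large folds.

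By role, 11 of 13 entry genes were higher (median 0.69), as were 10 of 11 traffic genes (median 0.66) and 14 of 15 folding genes (median 0.44). Degradation gave 3 of 6 higher (median 0.27), and the regulators split into 4 higher, 2 lower and 1 not called (median 0.48). For 17 members every HEC array lay above every capillary array, against 4.36% of all genes, and for 1 member, Ddit3, every HEC array lay below, against 4.45% of all genes. The 17 were Hyou1, Manf, Pdia3, Xbp1, Ern1, Creb3l2, Sec11c, Spcs2, Spcs3, Ssr2, Ssr3, Ssr4, Sec22b, Sec23b, Sec24d, Sec31a and Kdelr3. Averaged over the 52 members, HEC arrays ran between 0.05 and 0.49 with a median of 0.40, and capillary arrays between -0.29 and -0.06 with a median of -0.23. The 3 Peyer's patch HEC arrays spread most, at 0.20, 0.05 and 0.49. The heat map of members by array shows the same values gene by gene.

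**Figure D1:**
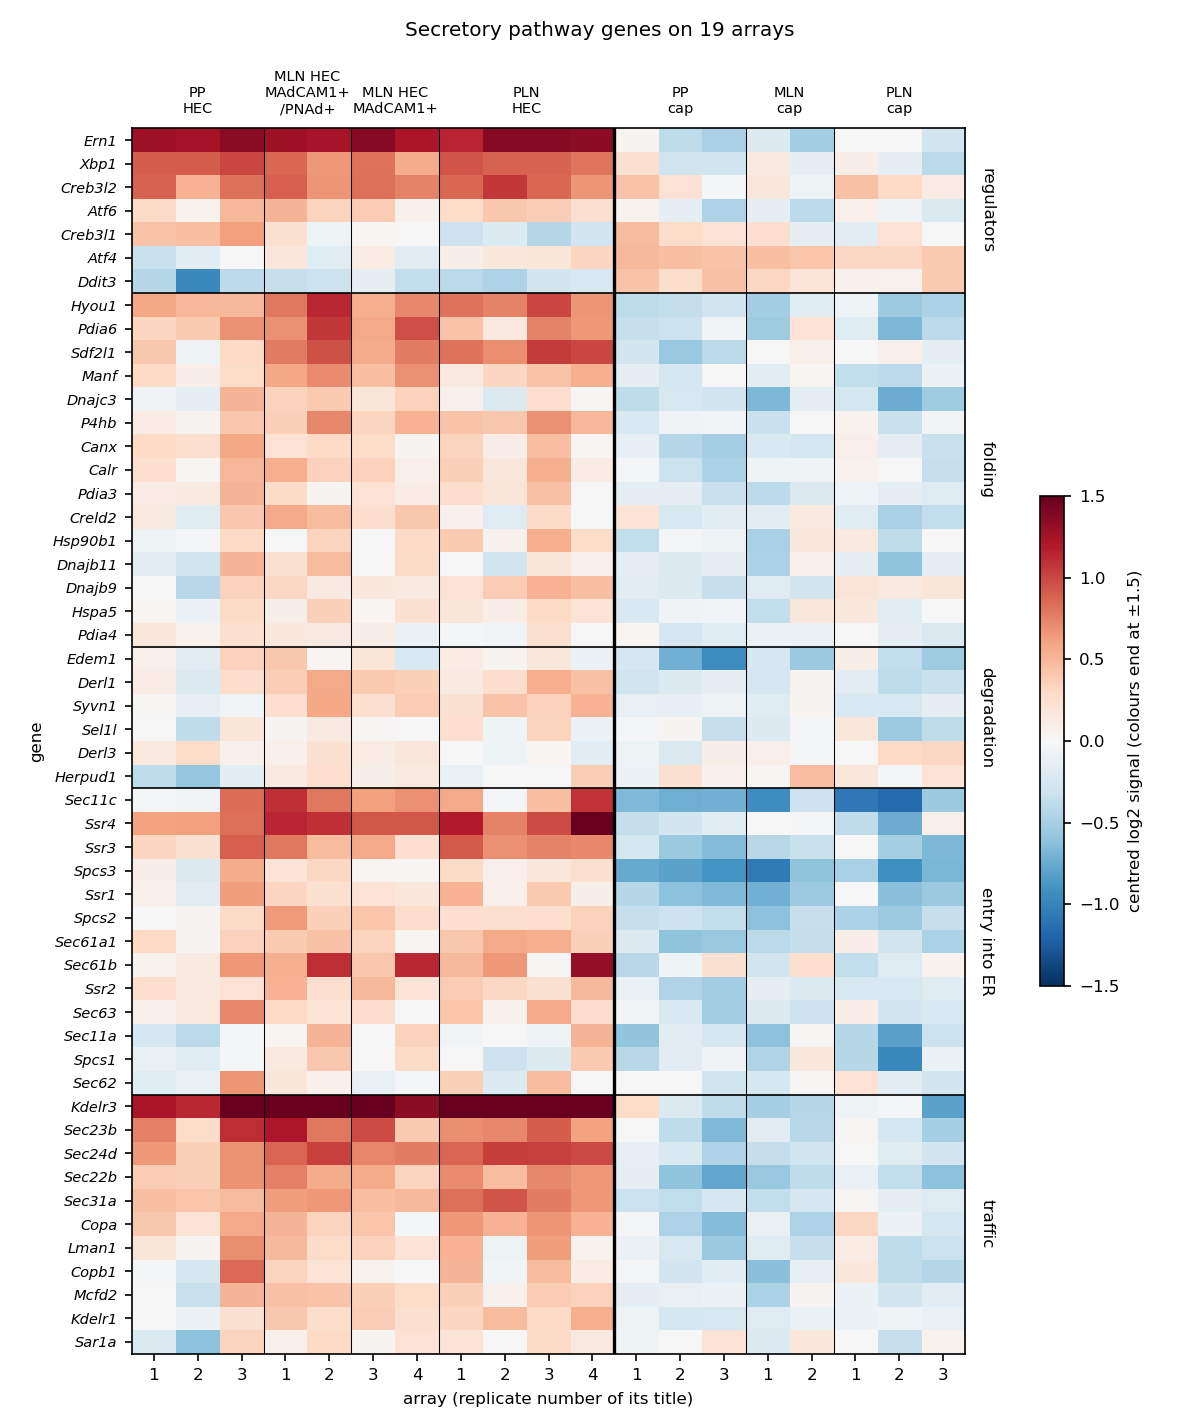
Centred log2 value of each of the 52 measured members (rows, by role) on each of the 19 arrays (columns, HEC left of capillary cells). Most rows are higher across the 11 HEC columns than across the 8 capillary columns, while Ddit3 and Atf4 run the other way.

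The regulators went in different directions. Ern1 read 1.27, 1.25 and 1.36 on the Peyer's patch HEC arrays, 1.28 and 1.24 on MAdCAM1+/PNAd+ and 1.37 and 1.23 on MAdCAM1+ mesenteric HEC arrays, and 1.14, 1.37, 1.37 and 1.35 on peripheral HEC arrays. Capillary cells gave Ern1 values of 0.04, -0.38 and -0.49 in Peyer's patches, -0.20 and -0.51 in mesenteric nodes and 0.00, 0.00 and -0.27 in peripheral nodes. All 11 HEC arrays lay at least at 1.14 and all 8 capillary arrays at most at 0.04, with no overlap. The log2 difference ± SE was 1.53 ± 0.07 (adjusted p = 2.23e-11), a fold of 2.9, and differences below are given in the same way. Xbp1 read 0.91, 0.91 and 1.01 on the Peyer's patch HEC arrays, 0.86 and 0.65 on MAdCAM1+/PNAd+ and 0.81 and 0.55 on MAdCAM1+ mesenteric HEC arrays, and 0.95, 0.88, 0.89 and 0.80 on peripheral HEC arrays. Capillary cells gave Xbp1 values of 0.24, -0.29 and -0.30 in Peyer's patches, 0.14 and -0.13 in mesenteric nodes and 0.10, -0.14 and -0.40 in peripheral nodes. Xbp1, the transcription factor that IRE1 activates by splicing its mRNA, was thus separate between the cell types, by 0.93 ± 0.08 (adjusted p = 8.84e-08). The mesenteric call was lost without mesenteric capillary array 2 (0.58, adjusted p = 0.0777). These gene-level values give no share of spliced Xbp1 mRNA.

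Creb3l2 read 0.88, 0.52 and 0.83 on the Peyer's patch HEC arrays, 0.90 and 0.66 on MAdCAM1+/PNAd+ and 0.82 and 0.74 on MAdCAM1+ mesenteric HEC arrays, and 0.86, 1.06, 0.87 and 0.67 on peripheral HEC arrays. Capillary cells gave Creb3l2 values of 0.42, 0.22 and -0.03 in Peyer's patches, 0.17 and -0.08 in mesenteric nodes and 0.44, 0.30 and 0.12 in peripheral nodes. Creb3l2, a membrane-bound factor of the CREB3 family that supports secretory gene expression, had the lowest HEC array at 0.52 and the highest capillary array at 0.44, so the groups were separate but close. HEC exceeded capillary cells by 0.62 ± 0.08 (adjusted p = 6.89e-06). Atf6 read 0.29, 0.05 and 0.50 on the Peyer's patch HEC arrays, 0.51 and 0.34 on MAdCAM1+/PNAd+ and 0.38 and 0.07 on MAdCAM1+ mesenteric HEC arrays, and 0.28, 0.40, 0.37 and 0.24 on peripheral HEC arrays. Capillary cells gave Atf6 values of 0.06, -0.14 and -0.46 in Peyer's patches, -0.15 and -0.39 in mesenteric nodes and 0.08, -0.05 and -0.22 in peripheral nodes. Atf6 was mostly higher in HEC, with a narrow overlap between Peyer's patch HEC array 2 or mesenteric MAdCAM1+ array 4 and the highest capillary arrays. Its difference was 0.48 ± 0.08 (adjusted p = 0.00014). In peripheral nodes it differed by 0.39 ± 0.13 (adjusted p = 0.0405), a call lost in 6 of 7 fits without 1 array, with 0.31 without capillary array 3 (adjusted p = 0.171). The Peyer's patch call, 0.46 ± 0.14 (adjusted p = 0.0279), was lost in 4 of 6 such fits, with 0.32 without capillary array 3 (adjusted p = 0.162), and the mesenteric call without capillary array 2 (0.47, adjusted p = 0.157).

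Ddit3 and Atf4 ran lower in HEC. Ddit3 read -0.42, -0.97 and -0.40 on the Peyer's patch HEC arrays, -0.34 and -0.33 on MAdCAM1+/PNAd+ and -0.15 and -0.37 on MAdCAM1+ mesenteric HEC arrays, and -0.40, -0.47, -0.28 and -0.24 on peripheral HEC arrays. Capillary cells gave Ddit3 values of 0.42, 0.26 and 0.44 in Peyer's patches, 0.31 and 0.20 in mesenteric nodes and 0.06, 0.05 and 0.39 in peripheral nodes. Every HEC array of Ddit3, which encodes the stress factor CHOP, was below 0 and every capillary array above it. The difference was -0.68 ± 0.08 (adjusted p = 2.15e-06). Atf4 read -0.33, -0.17 and -0.01 on the Peyer's patch HEC arrays, 0.17 and -0.18 on MAdCAM1+/PNAd+ and 0.11 and -0.16 on MAdCAM1+ mesenteric HEC arrays, and 0.10, 0.16, 0.18 and 0.32 on peripheral HEC arrays. Capillary cells gave Atf4 values of 0.49, 0.45 and 0.43 in Peyer's patches, 0.45 and 0.42 in mesenteric nodes and 0.31, 0.31 and 0.40 in peripheral nodes. For Atf4, the factor translated when PERK is active, HEC lay below capillary cells except for peripheral HEC array 4, at 0.32, which reached the 2 lowest capillary arrays. The difference was -0.41 ± 0.06 (adjusted p = 4.01e-05). Peripheral nodes showed the smallest tissue value, -0.15 ± 0.10 (adjusted p = 0.28).

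Creb3l1 read 0.42, 0.45 and 0.61 on the Peyer's patch HEC arrays, 0.22 and -0.08 on MAdCAM1+/PNAd+ and 0.03 and 0.01 on MAdCAM1+ mesenteric HEC arrays, and -0.31, -0.21, -0.43 and -0.28 on peripheral HEC arrays. Capillary cells gave Creb3l1 values of 0.47, 0.28 and 0.22 in Peyer's patches, 0.25 and -0.13 in mesenteric nodes and -0.17, 0.21 and 0.01 in peripheral nodes. Creb3l1, a close relative of Creb3l2 known for collagen secretion in bone, overlapped widely between the cell types. Its difference over the tissues, -0.06 ± 0.07 (adjusted p = 0.612), was not called. The HEC arrays instead stood in the order Peyer's patches, mesenteric nodes and peripheral nodes, with no overlap, but only Peyer's patches and peripheral nodes differed at an adjusted p of 0.05. The strip plot of the 7 regulators shows this order beside the HEC-high pattern of Ern1, Xbp1, Creb3l2 and Atf6.

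**Figure D2:**
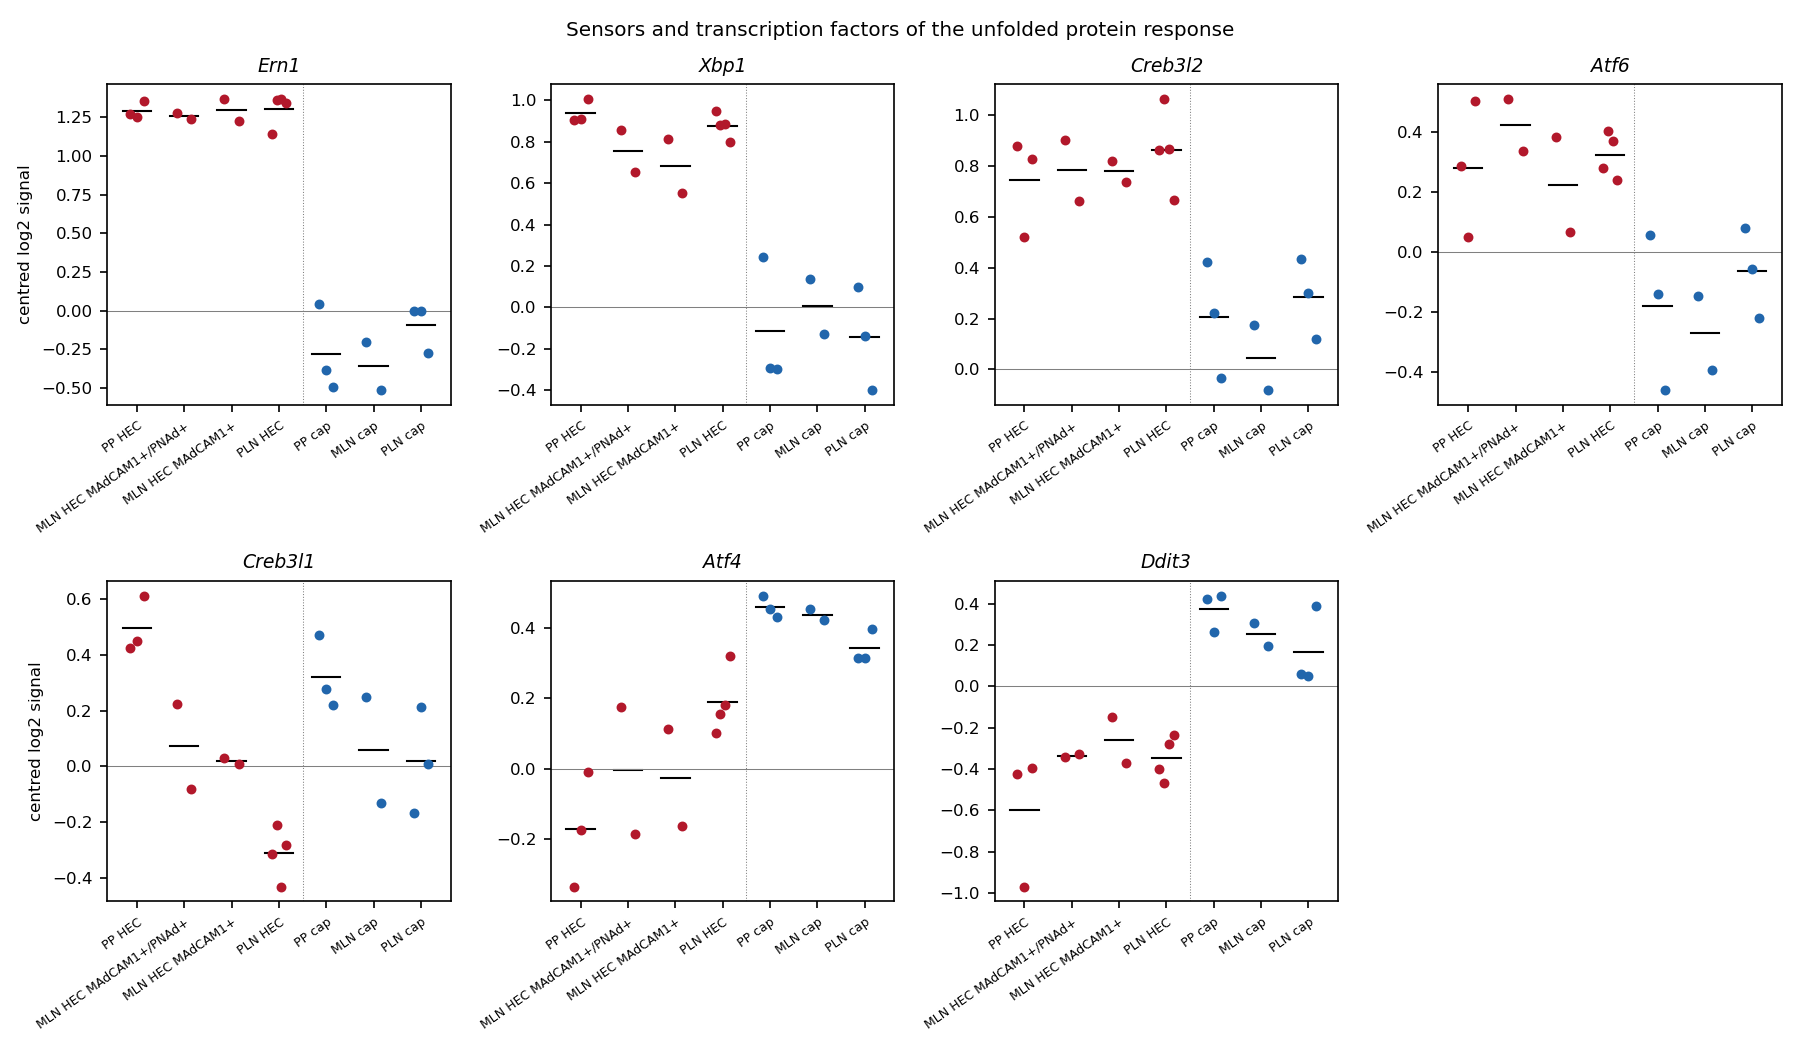
Centred log2 value of each regulator on every array (points) by group, with the group mean as a bar; HEC groups are left of capillary (cap) groups. Ern1, Xbp1 and Creb3l2 are higher on all 11 HEC arrays than on any capillary array, Ddit3 is lower, and Creb3l1 differs among the HEC groups.

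Transcripts of the PERK and ATF4 branch beyond Atf4 and Ddit3 went both ways. Of 19 measured target genes, 7 were higher in HEC, 7 lower and 5 not called, with a median of -0.04. The largest differences were Vldlr, the very low density lipoprotein receptor, at 2.26 ± 0.11 (adjusted p = 2.03e-11), Asns, asparagine synthetase, at 1.20 ± 0.15 (adjusted p = 5.88e-06), and Eif2ak3, which encodes PERK itself, at 0.78 ± 0.09 (adjusted p = 2.31e-06). Chosen after their values were seen, Ppp1r15a, the phosphatase subunit that ends the PERK signal, differed by -0.65 ± 0.07 (adjusted p = 3.73e-07) and the stress factor Atf3 by -0.60 ± 0.09 (adjusted p = 3.18e-05). Beside them, 11 of 12 immediate-early genes, a list added after the data were seen that marks among other things the handling of dissociated tissue, were lower in HEC. Its mean ran from -0.93 to -0.12 on HEC arrays, against 0.15 to 0.64 on capillary arrays, and its part in the lower stress genes was not tested.

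Most folding genes were higher in HEC, by very different amounts. Hyou1 read 0.58, 0.49 and 0.48 on the Peyer's patch HEC arrays, 0.79 and 1.13 on MAdCAM1+/PNAd+ and 0.54 and 0.73 on MAdCAM1+ mesenteric HEC arrays, and 0.82, 0.74, 1.00 and 0.66 on peripheral HEC arrays. Capillary cells gave Hyou1 values of -0.39, -0.36 and -0.30 in Peyer's patches, -0.51 and -0.18 in mesenteric nodes and -0.07, -0.54 and -0.48 in peripheral nodes. Hyou1, a large chaperone that helps BiP exchange its nucleotide, was separate on all arrays, by 1.06 ± 0.08 (adjusted p = 4.46e-09). Pdia6 read 0.33, 0.39 and 0.68 on the Peyer's patch HEC arrays, 0.69 and 1.06 on MAdCAM1+/PNAd+ and 0.56 and 0.96 on MAdCAM1+ mesenteric HEC arrays, and 0.43, 0.14, 0.74 and 0.65 on peripheral HEC arrays. Capillary cells gave Pdia6 values of -0.34, -0.32 and -0.04 in Peyer's patches, -0.53 and 0.22 in mesenteric nodes and -0.18, -0.68 and -0.39 in peripheral nodes. Pdia6, a disulfide isomerase, overlapped because mesenteric capillary array 2 reached 0.22 and peripheral HEC array 2 stood at 0.14. Its difference was 0.86 ± 0.12 (adjusted p = 1.1e-05), and in mesenteric nodes the call was lost without capillary array 1 (0.60, adjusted p = 0.167).

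Sdf2l1 read 0.41, -0.08 and 0.30 on the Peyer's patch HEC arrays, 0.78 and 0.96 on MAdCAM1+/PNAd+ and 0.56 and 0.76 on MAdCAM1+ mesenteric HEC arrays, and 0.81, 0.70, 1.05 and 1.00 on peripheral HEC arrays. Capillary cells gave Sdf2l1 values of -0.28, -0.57 and -0.41 in Peyer's patches, -0.01 and 0.08 in mesenteric nodes and 0.00, 0.08 and -0.15 in peripheral nodes. Sdf2l1, an ER protein of the chaperone complex around BiP, had its only HEC array below 0 in Peyer's patches, which gave the overlap with the mesenteric and peripheral capillary arrays. HEC were higher by 0.76 ± 0.07 (adjusted p = 2.93e-07). The other 12 folding genes had 11 calls, all higher. They included Manf (0.56), an ER-resident factor released under stress, Dnajc3 (0.56), a BiP co-chaperone, the lectin chaperones Canx (0.51) and Calr (0.44) and the isomerases P4hb (0.52), Pdia3 (0.43) and Pdia4 (0.21), with Creld2 (0.34) and the co-chaperone Dnajb9 (0.28). Hsp90b1, which encodes GRP94, differed by 0.31 ± 0.11 (adjusted p = 0.0311) and lost its call when any of 7 of the 19 arrays was left out. Dnajb11, another BiP co-chaperone, had a value of 0.30 ± 0.11 (adjusted p = 0.0508) and was not called.

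Hspa5, which encodes BiP, the chaperone that holds the sensors inactive, stood among the smallest of these differences. Hspa5 read 0.03, -0.09 and 0.28 on the Peyer's patch HEC arrays, 0.09 and 0.36 on MAdCAM1+/PNAd+ and 0.03 and 0.23 on MAdCAM1+ mesenteric HEC arrays, and 0.18, 0.10, 0.30 and 0.20 on peripheral HEC arrays. Capillary cells gave Hspa5 values of -0.23, -0.05 and -0.04 in Peyer's patches, -0.37 and 0.16 in mesenteric nodes and 0.16, -0.17 and 0.00 in peripheral nodes. The arrays overlapped, with HEC between -0.09 and 0.36 and capillary cells between -0.37 and 0.16. The difference of 0.22 ± 0.08 (adjusted p = 0.0406) lost its call in 12 of 19 fits with 1 array left out, and without mesenteric capillary array 1 it was 0.13 (adjusted p = 0.244). In no single tissue was Hspa5 called. Hspa5 was chosen for this account after its value was seen.

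Entry into the ER had the highest median of the roles. Sec11c read -0.03, -0.04 and 0.84 on the Peyer's patch HEC arrays, 1.09 and 0.79 on MAdCAM1+/PNAd+ and 0.61 and 0.68 on MAdCAM1+ mesenteric HEC arrays, and 0.56, -0.03, 0.46 and 1.08 on peripheral HEC arrays. Capillary cells gave Sec11c values of -0.66, -0.73 and -0.72 in Peyer's patches, -0.94 and -0.31 in mesenteric nodes and -1.07, -1.15 and -0.56 in peripheral nodes. All HEC arrays of Sec11c, a catalytic subunit of signal peptidase, lay above all capillary arrays, although HEC arrays spread from -0.04 to 1.09. The difference was 1.28 ± 0.15 (adjusted p = 2.51e-06). Within Peyer's patches, HEC arrays 1 and 2 stood near 0 and array 3 at 0.84, and without array 3 the Peyer's patch difference was 0.67 (adjusted p = 0.0653), against 0.96 (adjusted p = 0.0132) with it.

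Ssr4 read 0.60, 0.62 and 0.83 on the Peyer's patch HEC arrays, 1.14 and 1.10 on MAdCAM1+/PNAd+ and 0.93 and 0.93 on MAdCAM1+ mesenteric HEC arrays, and 1.20, 0.75, 0.98 and 1.67 on peripheral HEC arrays. Capillary cells gave Ssr4 values of -0.36, -0.29 and -0.15 in Peyer's patches, 0.00 and -0.03 in mesenteric nodes and -0.38, -0.74 and 0.07 in peripheral nodes. Ssr4, a subunit of the translocon-associated TRAP complex, was separate on all arrays, highest on peripheral HEC array 4. Its difference was 1.16 ± 0.11 (adjusted p = 2.15e-07). Ssr3 read 0.32, 0.22 and 0.89 on the Peyer's patch HEC arrays, 0.79 and 0.48 on MAdCAM1+/PNAd+ and 0.57 and 0.26 on MAdCAM1+ mesenteric HEC arrays, and 0.92, 0.69, 0.74 and 0.72 on peripheral HEC arrays. Capillary cells gave Ssr3 values of -0.26, -0.56 and -0.65 in Peyer's patches, -0.42 and -0.34 in mesenteric nodes and 0.00, -0.49 and -0.67 in peripheral nodes. Ssr3, of the same complex, was also separate, with a difference of 1.01 ± 0.10 (adjusted p = 5.01e-07). The remaining TRAP subunits Ssr1 and Ssr2 were higher by 0.76 ± 0.11 and 0.55 ± 0.07, so that all 4 subunits were called. Of the Sec61 channel, Sec61a1 differed by 0.69 ± 0.08 and Sec61b by 0.65 ± 0.17, and the partner Sec63 by 0.50 ± 0.10. The signal peptidase subunits Spcs3 and Spcs2 were higher by 0.94 and 0.69. Spcs1, at 0.31 ± 0.12 (adjusted p = 0.066), and Sec62, at 0.20 ± 0.12 (adjusted p = 0.221), were the entry genes not called.

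Traffic genes held the member with the largest difference. Kdelr3 read 1.22, 1.13 and 1.91 on the Peyer's patch HEC arrays, 2.09 and 1.72 on MAdCAM1+/PNAd+ and 1.85 and 1.34 on MAdCAM1+ mesenteric HEC arrays, and 1.68, 1.69, 1.76 and 2.14 on peripheral HEC arrays. Capillary cells gave Kdelr3 values of 0.27, -0.22 and -0.38 in Peyer's patches, -0.50 and -0.43 in mesenteric nodes and -0.06, -0.03 and -0.80 in peripheral nodes. Kdelr3, a receptor that returns chaperones with a KDEL-type tail from the Golgi to the ER, was at 1.13 or above on every HEC array and at 0.27 or below on every capillary array. The difference was 1.95 ± 0.14 (adjusted p = 3.5e-09), a fold of 3.88. Sec23b read 0.76, 0.27 and 1.10 on the Peyer's patch HEC arrays, 1.22 and 0.79 on MAdCAM1+/PNAd+ and 0.98 and 0.39 on MAdCAM1+ mesenteric HEC arrays, and 0.69, 0.72, 0.90 and 0.61 on peripheral HEC arrays. Capillary cells gave Sec23b values of -0.01, -0.38 and -0.66 in Peyer's patches, -0.16 and -0.41 in mesenteric nodes and 0.01, -0.26 and -0.49 in peripheral nodes. Sec23b, of the inner COPII coat, was separate between the cell types, with Peyer's patch array 2 and mesenteric MAdCAM1+ array 4 the lowest of the HEC. Its difference was 1.06 ± 0.12 (adjusted p = 2.19e-06).

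Sec24d read 0.65, 0.36 and 0.67 on the Peyer's patch HEC arrays, 0.87 and 1.02 on MAdCAM1+/PNAd+ and 0.73 and 0.77 on MAdCAM1+ mesenteric HEC arrays, and 0.87, 1.03, 1.02 and 0.99 on peripheral HEC arrays. Capillary cells gave Sec24d values of -0.13, -0.23 and -0.46 in Peyer's patches, -0.36 and -0.30 in mesenteric nodes and 0.00, -0.18 and -0.29 in peripheral nodes. Sec24d, the cargo-binding partner of Sec23 in the same coat, had tight groups that did not overlap, with Peyer's patch HEC the lowest of the HEC. It differed by 1.05 ± 0.06 (adjusted p = 3.7e-10). Sec22b, a SNARE of ER-Golgi transport, was higher by 1.00 ± 0.09, Sec31a, of the outer COPII coat, by 0.84 ± 0.05, and the COPI subunits Copa and Copb1 by 0.66 ± 0.10 and 0.45 ± 0.14. Without mesenteric capillary array 1, Copb1 stood at 0.36 (adjusted p = 0.0824). The cargo receptor pair Lman1 and Mcfd2, which carries clotting factors, was higher by 0.56 ± 0.12 and 0.41 ± 0.10. Sar1a, the GTPase that starts the COPII coat, was the traffic gene not called, at 0.07 ± 0.11 (adjusted p = 0.663).

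Degradation genes had the lowest median of the roles. Edem1 read 0.08, -0.17 and 0.34 on the Peyer's patch HEC arrays, 0.41 and 0.03 on MAdCAM1+/PNAd+ and 0.18 and -0.22 on MAdCAM1+ mesenteric HEC arrays, and 0.11, 0.04, 0.17 and -0.10 on peripheral HEC arrays. Capillary cells gave Edem1 values of -0.26, -0.72 and -0.95 in Peyer's patches, -0.25 and -0.55 in mesenteric nodes and 0.10, -0.37 and -0.53 in peripheral nodes. Edem1, which marks misfolded glycoproteins for disposal, overlapped between the cell types, and capillary arrays 2 and 3 of Peyer's patches were the lowest. The difference was 0.52 ± 0.11 (adjusted p = 0.00135), called in Peyer's patches (0.73) but not in either node. The Peyer's patch call was lost in 2 of 6 fits without 1 array, with 0.57 without capillary array 3 (limma, adjusted p = 0.0757). Without Peyer's patch capillary arrays 2 and 3 the difference there was 0.34. Derl1 read 0.11, -0.20 and 0.26 on the Peyer's patch HEC arrays, 0.37 and 0.57 on MAdCAM1+/PNAd+ and 0.39 and 0.36 on MAdCAM1+ mesenteric HEC arrays, and 0.13, 0.27, 0.54 and 0.44 on peripheral HEC arrays. Capillary cells gave Derl1 values of -0.30, -0.20 and -0.15 in Peyer's patches, -0.25 and 0.04 in mesenteric nodes and -0.17, -0.39 and -0.33 in peripheral nodes. Derl1, part of the channel through which misfolded proteins leave the ER, was higher by 0.48 ± 0.07 (adjusted p = 5.14e-05), with overlap where Peyer's patch HEC array 2 stood at -0.20.

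Syvn1 read 0.01, -0.13 and -0.04 on the Peyer's patch HEC arrays, 0.25 and 0.58 on MAdCAM1+/PNAd+ and 0.24 and 0.38 on MAdCAM1+ mesenteric HEC arrays, and 0.23, 0.43, 0.34 and 0.52 on peripheral HEC arrays. Capillary cells gave Syvn1 values of -0.11, -0.13 and -0.07 in Peyer's patches, -0.18 and 0.04 in mesenteric nodes and -0.23, -0.24 and -0.15 in peripheral nodes. Syvn1, the ubiquitin ligase HRD1 of this disposal route, was higher on all node HEC arrays than on any capillary array, while Peyer's patch HEC and capillary values overlapped. Over the tissues it differed by 0.36 ± 0.06 (adjusted p = 8.88e-05). Sel1l, the partner of HRD1, stood at 0.19 ± 0.10 (adjusted p = 0.184) and Herpud1, another member of its complex, at -0.19 ± 0.08 (adjusted p = 0.0822), and neither was called. In Peyer's patches alone Herpud1 was lower, at -0.44 ± 0.14 (adjusted p = 0.0361). That call was lost in 4 of 6 fits without 1 array, with -0.36 without capillary array 2 (limma, adjusted p = 0.164).

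Paralogs of 1 step were set side by side. Kdelr1 read 0.00, -0.09 and 0.23 on the Peyer's patch HEC arrays, 0.41 and 0.26 on MAdCAM1+/PNAd+ and 0.36 and 0.24 on MAdCAM1+ mesenteric HEC arrays, and 0.32, 0.47, 0.30 and 0.54 on peripheral HEC arrays. Capillary cells gave Kdelr1 values of -0.07, -0.27 and -0.25 in Peyer's patches, -0.19 and -0.10 in mesenteric nodes and -0.09, -0.06 and -0.11 in peripheral nodes. Kdelr1, the sister receptor of Kdelr3, overlapped in Peyer's patches and differed by 0.40 ± 0.06 (adjusted p = 1.9e-05). Sec11a read -0.25, -0.41 and -0.02 on the Peyer's patch HEC arrays, 0.03 and 0.51 on MAdCAM1+/PNAd+ and -0.01 and 0.35 on MAdCAM1+ mesenteric HEC arrays, and -0.04, 0.00, -0.06 and 0.52 on peripheral HEC arrays. Capillary cells gave Sec11a values of -0.60, -0.17 and -0.27 in Peyer's patches, -0.62 and 0.02 in mesenteric nodes and -0.43, -0.81 and -0.32 in peripheral nodes. Sec11a, the alternative catalytic subunit beside Sec11c, overlapped over the 19 arrays and differed by 0.42 ± 0.12 (adjusted p = 0.00934). Without mesenteric capillary array 1 its value was 0.31 (adjusted p = 0.0639). The difference between paralogs was not tested.

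Derl3 read 0.14, 0.27 and 0.07 on the Peyer's patch HEC arrays, 0.08 and 0.23 on MAdCAM1+/PNAd+ and 0.11 and 0.17 on MAdCAM1+ mesenteric HEC arrays, and -0.01, -0.07, 0.03 and -0.16 on peripheral HEC arrays. Capillary cells gave Derl3 values of -0.08, -0.22 and 0.09 in Peyer's patches, 0.07 and -0.03 in mesenteric nodes and -0.01, 0.30 and 0.31 in peripheral nodes. Derl3, a relative of Derl1 known from secretory cells, overlapped and gave 0.03 ± 0.06 (adjusted p = 0.733), and no single tissue called it. Within the CREB3 family, Creb3l2 was higher by 0.62 and Creb3l1 was at -0.06. The plot of paralog pairs sets Kdelr3, Sec11c and Derl1 over Kdelr1, Sec11a and Derl3.

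**Figure D3:**
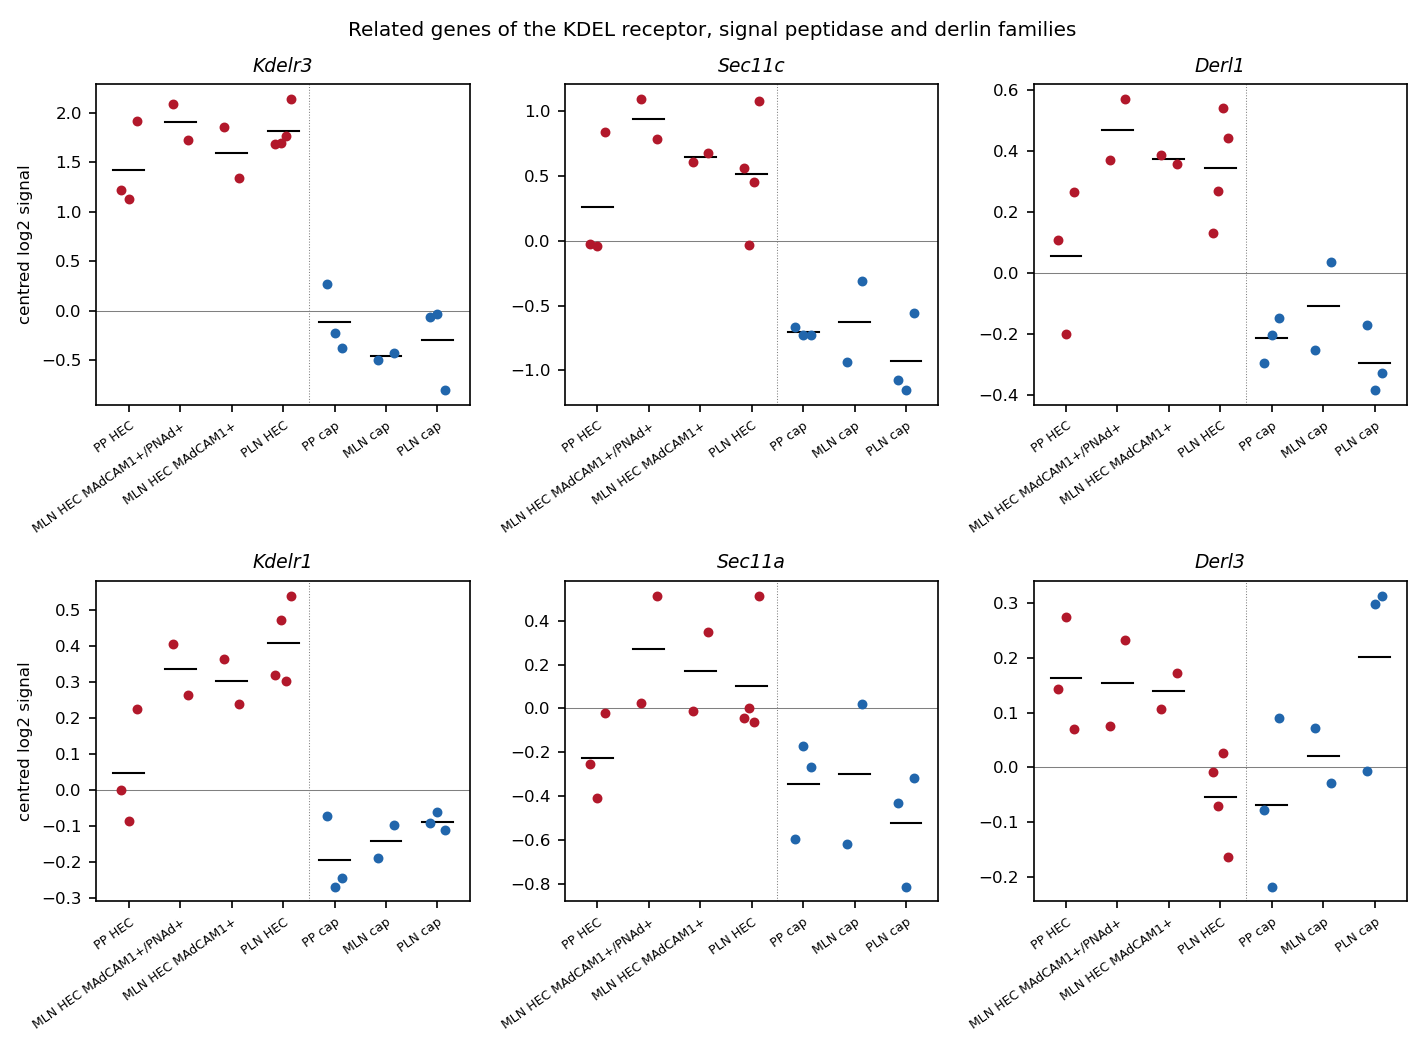
Centred log2 value of 3 genes and of a paralog of each on every array (points) by group, with the group mean as a bar; HEC groups are left of capillary (cap) groups. Kdelr3 and Sec11c are separate between the 11 HEC and 8 capillary arrays, while Kdelr1, Sec11a, Derl1 and Derl3 overlap.

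Most members were higher in HEC within each tissue as well. In Peyer's patches 28 members were higher in HEC and 3 lower, against 8.9% and 10.6% of all genes, with a median of 0.46. The highest were Ern1 (1.57 ± 0.13), Kdelr3 (1.53 ± 0.24) and Sec23b (1.06 ± 0.21), and the 3 lower were Ddit3 (-0.97 ± 0.14), Atf4 (-0.63 ± 0.11) and Herpud1 (-0.44 ± 0.14). Groups did not overlap for 30 members above and 3 below, against 13.1% and 13.9% of all genes. Leaving out capillary arrays 2 and 3, which had the highest epithelial marker values of their group, left 8 members and 3.5% of all genes higher, with 1 array in that arm assumed to vary like the other groups. Leaving out HEC array 3 left 19, with 9.92% of all genes higher.

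In mesenteric nodes 30 members were higher and 2 lower, against 7.87% and 7.31% of all genes, with a median of 0.56. Kdelr3 (2.21 ± 0.25), Ern1 (1.63 ± 0.14) and Sec11c (1.42 ± 0.28) were highest, and Ddit3 (-0.55 ± 0.14) and Atf4 (-0.45 ± 0.11) were lower. For 40 members all HEC arrays lay above both capillary arrays and for 2 below, against 18.6% and 18.5% of all genes. Each of these 2 lower calls was lost in 2 of 6 fits without 1 array. Without capillary array 1, Ddit3 differed by -0.49 and Atf4 by -0.44, and neither call was kept, with 1 capillary array left to stand for the group. Fewer members were called in that fit, and the cause was not tested.

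In peripheral nodes 32 members were higher and 2 lower, against 13.1% and 11.4% of all genes, with a median of 0.55. Kdelr3 (2.12 ± 0.22), Ssr4 (1.49 ± 0.18) and Sec11c (1.45 ± 0.24) were highest, and Ddit3 (-0.51 ± 0.13) and Creb3l1 (-0.33 ± 0.11) were lower. Groups did not overlap for 32 members above and 2 below, against 15.4% and 19.6% of all genes. The call of Creb3l1 was lost without any 1 of 5 of the 7 arrays, and that of Ddit3 without capillary array 3 (adjusted p = 0.054). The number lower was 0 without capillary array 3 and 1 without capillary array 2 or without HEC array 1, 3 or 4. Without capillary array 2, 23 members and 9.09% of all genes were higher. Capillary arrays 1 and 2 had the highest high endothelial marker means of their group, 1.12 and 0.93, against 0.18 on array 3. Without both, Kdelr3 differed by 2.62 and Sec11c by 1.07, with 1 capillary array left to stand for the group. The calls of Sec11c and some other members were lost there, and that of Kdelr3 was kept.

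Across tissues, 23 members were called higher in all 3, 8 in 2 tissues and 5 in 1, and 46 of 52 had a positive difference in all 3. These are 44.2%, 15.4%, 9.62% and 88.5% of the members, against 5.07%, 3.52%, 7.65% and 25.4% of all genes, so the share called in 1 tissue was near that of all genes. The 23 were Hyou1, Sdf2l1, Manf, Pdia3, Pdia6, Xbp1, Atf6, Ern1, Creb3l2, Sec61a1, Sec11c, Spcs2, Spcs3, all 4 Ssr genes, Sec22b, Sec23b, Sec24d, Sec31a, Kdelr3 and Copa. Not all of these calls held when 1 array was left out. Pdia3 lost its call in 4 of 7 such fits in peripheral nodes and 2 of 6 in Peyer's patches. Manf lost its Peyer's patch call in 4 of 6. Ddit3 was the only member called lower in all 3 tissues, against 4.82% of all genes. Its mesenteric and peripheral calls were not kept in every fit without 1 array. The 12 called in no tissue (23.1%, against 67.3% of all genes) included the chaperones Hspa5, Hsp90b1, Dnajb9, Dnajb11, Creld2 and Pdia4. The dot plot of differences by tissue places the 3 values of each member side by side.

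**Figure D4:**
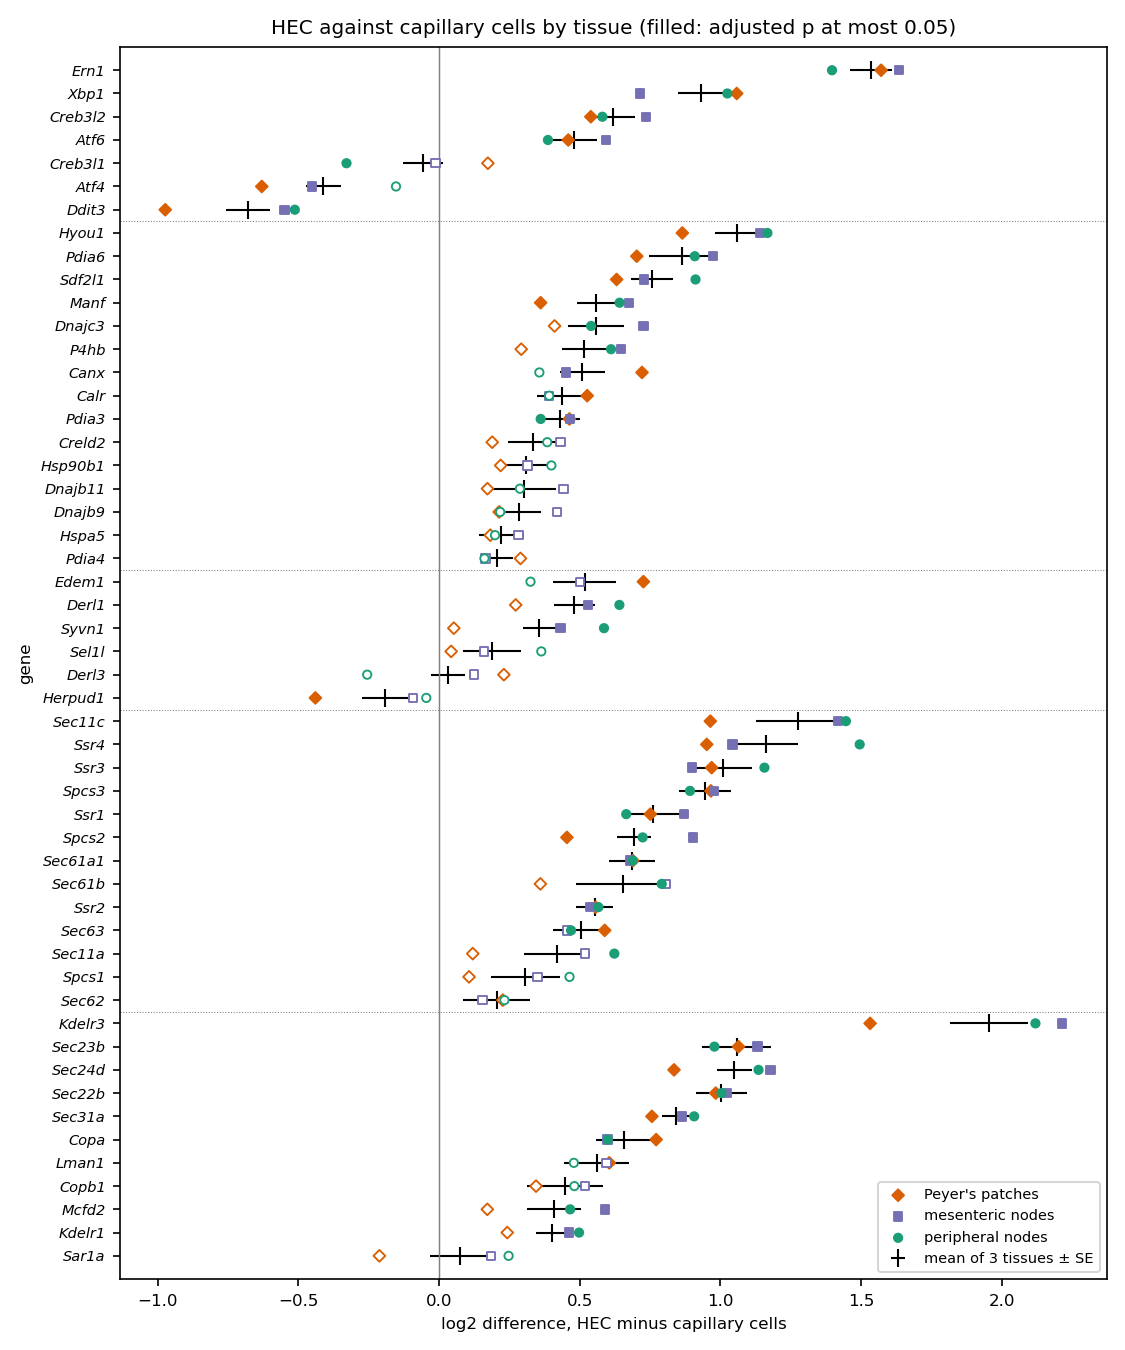
Log2 difference of HEC over capillary cells for each of the 52 members (rows, by role) in Peyer's patches, mesenteric nodes and peripheral nodes; points are filled where the adjusted p is at most 0.05, and the black mark is the mean of the tissues ± SE. Points lie right of 0 in all 3 tissues for 46 members, and Ddit3 lies left of 0 in all 3.

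Whether the HEC difference itself varied by tissue was tested as an interaction. Between Peyer's patches and peripheral nodes 1 member was called, lower, against 1.69% of all genes higher and 2.37% lower. This was Syvn1, whose difference was 0.05 ± 0.10 in Peyer's patches and 0.59 ± 0.09 in peripheral nodes, an interaction of -0.53 ± 0.14 (adjusted p = 0.036). The call was lost in 11 of 13 fits that left out 1 array, and it was kept without peripheral HEC array 1 or Peyer's patch HEC array 3, and 4 members were called without Peyer's patch HEC array 3, where 14.7% of all genes were. Between mesenteric and peripheral nodes 0 members were called in limma (0.416% of all genes, 1 member at an unadjusted p under 0.05), and 0 in every other setting run. Between Peyer's patches and mesenteric nodes 0 were called (0.752% of all genes, 4 members at an unadjusted p under 0.05), and with array weights 1 (8.54% of all genes).

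Among HEC, few members were called between Peyer's patches and the nodes. Against peripheral HEC, 1 member was higher and 6 lower, against 2.16% and 4.49% of all genes, and 41 of the 52 had a negative difference, with a median of -0.15. The count higher was near the share of all genes. Creb3l1 was higher by 0.81 ± 0.11 (adjusted p = 0.000218), all 3 Peyer's patch values lying above all 4 peripheral values. Lower were Sdf2l1 at -0.68 ± 0.12 (adjusted p = 0.00192), Syvn1 at -0.43 ± 0.09 (adjusted p = 0.00897) and Sec24d at -0.42 ± 0.10 (adjusted p = 0.0185), also without overlap. The other 3 were Kdelr1 (-0.36), Atf4 (-0.36) and Sec31a (-0.35). Of these, Atf4 lost its call without any 1 of 5 of the 7 arrays and Kdelr1 without any 1 of 4. Sec24d lost its call without any 1 of 2 of the 7. Of the 7 calls in this contrast, 2 were kept in every setting. Without Peyer's patch HEC array 3, 15 members were called and 26.6% of all genes, and without array 2, 4 members and 3.96%. Capillary group means in Peyer's patches and peripheral nodes were 0.32 and 0.02 for Creb3l1 and -0.42 and -0.02 for Sdf2l1. They were -0.27 and -0.16 for Sec24d and -0.10 and -0.21 for Syvn1. Creb3l1, Sdf2l1 and Sec24d thus shifted the same way as in HEC and Syvn1 the other way, with no capillary difference called in limma.

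Against mesenteric HEC, Peyer's patch HEC were lower for 2 members, Sdf2l1 at -0.55 ± 0.12 (adjusted p = 0.0327) and Syvn1 at -0.41 ± 0.09 (adjusted p = 0.041), against 0.557% of all genes higher and 0.642% lower. Left-out arrays moved this count between 0 and 8, with 8 without Peyer's patch HEC array 3 (4.74% of all genes), 1 without Peyer's patch HEC array 1 or MAdCAM1+ array 3, and 0 (limma) without Peyer's patch HEC array 2, MAdCAM1+/PNAd+ array 2 or MAdCAM1+ array 4. At an unadjusted p under 0.05, 14 members differed, 1 higher and 13 lower. The share of all genes at this unadjusted threshold was not counted. None of the unadjusted counts given here or elsewhere is therefore a result about the members. Mesenteric against peripheral HEC gave 0 members called in limma (2.69% of all genes, 6 members at an unadjusted p under 0.05) and 2 with array weights (6.01% of all genes). These comparisons share their Peyer's patch and node arrays. Beside them, 5 of 9 goblet and Paneth cell markers were higher in Peyer's patch than in peripheral HEC and 4 of 9 than in mesenteric HEC, and their part in the members' values was not tested.

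Among capillary cells 0 members were called in limma in any pair of tissues. Peyer's patches against peripheral nodes called 4.64% of all genes and gave 6 members at an unadjusted p under 0.05, with 1 to 3 called in some other settings. Mesenteric against peripheral nodes called 0.291% of all genes, with 2 members under the unadjusted 0.05 and 0 in the other settings. Peyer's patches against mesenteric nodes called 1.86% of all genes, with 1 member under it, Sdf2l1, and 1 called with array weights. The mesenteric gates, MAdCAM1+/PNAd+ against MAdCAM1+ on 2 arrays each, called 0 members in limma and in every other setting, 0 at an unadjusted p under 0.05, and 0.0201% of all genes. There 50 of 52 members had a positive difference, against 54.8% of all genes, but with a median of 0.11 and none larger than 0.32.

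Most of the wider machinery was also higher in HEC. Of the oligosaccharyltransferase, which attaches N-glycans, 9 of 12 genes were higher (median 0.73), led by Magt1 (1.08 ± 0.11), Stt3a (0.98 ± 0.10) and Stt3b (0.93 ± 0.09). The signal recognition particle and its receptor gave 4 of 7 (median 0.38), led by Srp72 (1.18 ± 0.10), Srp68 (0.71 ± 0.08) and Srprb (0.56 ± 0.07). Other oxidoreductases and chaperones gave 14 of 18 (median 0.41), with Pdia5 (1.54 ± 0.13), Sil1 (0.90 ± 0.08) and Dnajc10 (0.88 ± 0.12), and other degradation genes 10 of 13 (median 0.40), with Selenos (1.01 ± 0.14), Erlec1 (0.97 ± 0.09) and Derl2 (0.97 ± 0.13). No gene of these 4 lists was called lower.

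Other genes of COPII and ER exit sites had 14 of 18 higher and 1, Mia2 (-0.40), lower (median 0.49), with the cargo receptor Tmed3 (1.66 ± 0.08), the scaffold Sec16a (0.77 ± 0.06) and the exchange factor Preb (0.76 ± 0.07) largest. Other COPI and Golgi genes had 16 of 20 higher and 1, Copz2 (-0.80), lower (median 0.53), with Bet1 (1.33 ± 0.16), Uso1 (1.07 ± 0.08) and Golgb1 (0.93 ± 0.08) largest. Mia2 and Copz2 were picked for mention after their values were seen. Other membrane-bound factors and proteases split into 4 higher and 2 lower of 8 (median 0.10), with the translocation proteins Tram2 (-0.95 ± 0.08) and Tram1 (0.85 ± 0.07) on opposite sides and Wfs1 at 0.50 ± 0.09. The bar chart of gene lists sets all of these beside the member groups.

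**Figure D5:**
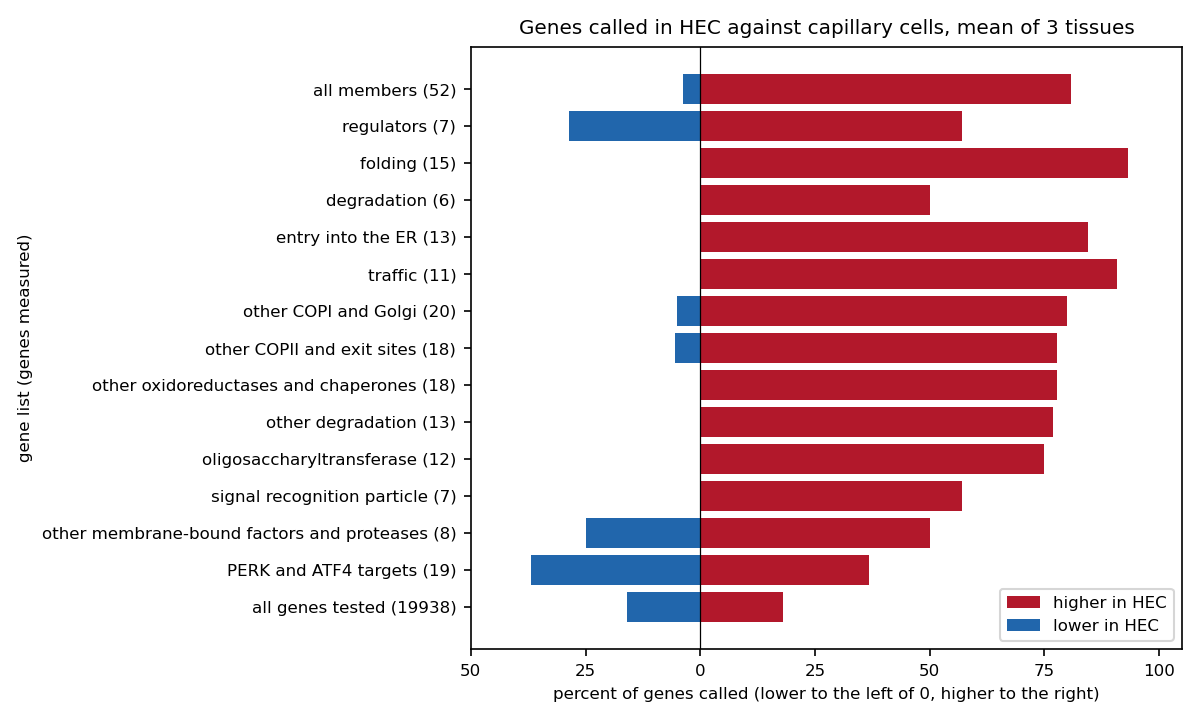
Share of each gene list called higher or lower in HEC over capillary cells (average over 3 tissues, adjusted p at most 0.05), beside all 19938 genes. The member groups of entry, traffic and folding have most genes higher, while the PERK and ATF4 targets hold 7 higher and 7 lower of 19.

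The motif searches were set beside these differences. ERSE was in 9 members, which is 20.9% of the 43 with a window, against 0.137% of all 27025 genes with a window and 0.119% of 32851 promoters. The members were listed by name for this response, so their share of its elements is no independent result. The 9 were Calr, Canx, Creld2, Derl3, Dnajc3, Hsp90b1, Hspa5, Pdia6 and Syvn1. Their median difference was 0.36, with a range of 0.03 to 0.86 and 8 called higher, against a median of 0.52 and 25 called higher in the 33 measured members with a window and no ERSE. UPRE was in 3 members, 6.98%, against 0.714% of all genes and 0.676% of promoters. Kdelr3 (1.95), Sec24d (1.05) and Copb1 (0.45) were all called higher, against a median of 0.44 and 30 called in the 39 without it. Among other genes with UPRE, 48 of 140 measured were higher and 15 lower, with a median of 0.03, and among other genes with ERSE 4 of 12 were higher and 2 lower, with a median of 0.06.

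The ATF4-type element CARE (TGATG, any base, AA) was in 2 members, Herpud1 and Kdelr1, or 4.65%, about the 4.51% of all genes (3.97% of promoters). ERSE-II (ATTGG, any base, CCACG) was in 2, Dnajb11 and Herpud1, or 4.65%, against 0.0444% of all genes and 0.0365% of promoters; both elements of Herpud1 lay apart from each other. A match is a description of letters in this window, and no match says nothing of more distant sites.

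Most B and T cell markers were higher in HEC, while most plasma cell markers were not. Among B cell markers 9 of 11 were higher in HEC (0.20 to 0.82, against -0.15 to 0.17), with Spib (1.03), Cd79b (0.90) and Cd79a (0.87) largest, and 5 of 8 T cell markers were higher (-0.04 to 0.53, against -0.20 to 0.09). Of 13 plasma cell markers 5 were higher and 1 lower (0.15 to 0.42, against 0.00 to 0.14). The higher were Pou2af1 (2.26), Tent5c (1.94), Txndc5 (0.56), Irf4 (0.41) and Fkbp11 (0.31), of which Txndc5 and Fkbp11 are themselves ER folding genes. The defining plasma cell genes Jchain (0.03), Mzb1 (-0.06), Sdc1 (-0.05) and Tnfrsf17 (-0.07) were not called, and Prdm1 was lower (-2.67). In such sorted pools, fewer cells of a type and less RNA per cell cannot be told apart, and centred values do not show which markers were near background. The part of these cells in the members' differences was not tested.

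Intestinal markers were set beside the Peyer's patch values. Goblet and Paneth cell markers, of very active secretory cells, averaged 1.41, 0.62 and 0.88 on the Peyer's patch HEC arrays, against 0.12, 0.53 and 0.77 on the capillary arrays, with 3 of 9 called higher there and 0 in the mean of tissues (limma). Absorptive epithelium markers averaged 0.64, 0.85 and 0.41 on the HEC arrays, against 0.13, 0.79 and 1.24 on the capillary arrays, with 0 higher and 1 lower of 10. The mean of peripheral and mesenteric nodes, an alternative added after seeing the data, called 40 members higher and 2 lower, against 17.6% and 16% of all genes. The part of intestinal cells in the Peyer's patch values was not tested.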

How the data were processed

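Total RNA of sorted endothelial cells was purified with a micro column kit, amplified and labelled with whole-transcript kits and hybridised to single-channel Affymetrix arrays, per the labels' protocols. The deposited log2 values had been made by the authors with RMA and Partek, per the submitters' processing notes, whose versions and order are not given in the sources used here. The deposited log2 values ran from -4.09 to 6.13 and were centred for each probe set on a baseline that is unknown here, so neither absolute level nor signal over background can be read, and their direction is taken from the log2 scale. Array medians lay between -0.03 and 0.06. Precision is limited by the number of arrays (2 to 4 a group), as an array has no read depth.

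Of 28856 probe sets, 21789 carried a single symbol in GEO's platform annotation, 1621 carried several and 5446 carried none. An Entrez match to the RefSeq gene table succeeded for 21698 and altered 0 symbols. Averaging the single-symbol probe sets gave 19938 genes, and the 52 measured members lay on 56 probe sets.

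Groups came from sample titles. With limma 3.58.1 in R 4.3.3, 1 mean per group (7 groups, 19 arrays) was fitted, with moderated variances and 14 contrasts, mesenteric HEC being the average of both gates. Errors are the model's SE, tests are two-sided, and Benjamini-Hochberg adjustment ran over all genes within a contrast at 0.05. The fit was tested on simulated data. Figures used matplotlib 3.10.9 under Python 3.11.15. Promoter windows were RefSeq's.

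The members and lists were chosen with earlier results of these data known. Genes given on every array were the regulators, the 3 largest called differences in each role, and the paralogs of the Kdelr, Sec11, Derl and Creb3l families; elsewhere the 3 highest and 3 lowest called members, and up to 3 per further list, were named. Others named are said to have been chosen afterwards or complete a count. Alternatives are described in the closing section.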

Additional observations from a re-analysis of the deposited data

Results flagged for a closer look

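In the peripheral HEC, the only group of 4 arrays, each of the 52 measured members was screened for an array far from the other 3, with Dixon's ratio of the gap to the range above 0.829. Chance alone flags about 1 group in 20. There were 5 such members. Pdia4 stood at 0.24 on array 3, with the others between -0.04 and 0.00. Ern1 stood at 1.14 on array 1, with the others between 1.35 and 1.37, and that array was still far above every capillary array. Sec11a stood at 0.52 on array 4, with the others between -0.06 and 0.00. Spcs2 stood at 0.345 on array 4, with the others between 0.24 and 0.25. Mcfd2 stood at 0.069 on array 2, with the others between 0.34 and 0.38.

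The interaction test called Syvn1. The gain of HEC over capillary cells was lower in Peyer's patches than in peripheral nodes by an interaction of -0.53 on the log2 scale (limma, adjusted p = 0.036). The call was lost in 11 of 13 fits that left out 1 array, with the replicate block and with the range filter. It was 1 of 52 members, against 1.69% of all genes called higher and 2.37% lower in this contrast, and so is no result about the members as a group.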

How the results depend on the processing

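The settings tried were a replicate block, the probe set of highest mean for each gene, quantile normalization repeated, arrays centred on their medians, array quality weights (which gave a convergence warning), a filter on range (over 0.770, 8736 genes and 49 members kept), a robust prior, a fit restricted to the groups compared, one without peripheral capillary arrays 1 and 2, and each array left out. The mean of 2 tissues and a fit without Peyer's patch capillary arrays 2 and 3 were chosen after seeing the data. Filters on dim probes and background correction need signal levels and were not run. Where 1 array of a pair, or the arrays named above, was left out, the lone array was assumed to vary like the other groups. No called member reversed in any setting, and other scalings moved the median of all genes by less than 0.1.

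HEC against capillary cells over the 3 tissues kept 37 of its 44 calls in every setting, and the 7 others, Hspa5, Hsp90b1, Dnajb9, Creld2, Pdia4, Sec11a and Copb1, lost theirs in some. With 1 array left out, 38 to 44 members were higher and 2 to 3 lower; in Peyer's patches 19 to 32 and 2 to 4, in mesenteric nodes 18 to 30 and 0 to 2, in peripheral nodes 23 to 37 and 0 to 3. Calls kept in every setting were 10 of 31 in Peyer's patches, 14 of 32 in mesenteric nodes and 20 of 34 in peripheral nodes. The number lower in peripheral nodes was 1 in place of 2 with the replicate block, repeated quantile normalization, median centring, the range filter and without peripheral capillary arrays 1 and 2. The number lower in mesenteric nodes was 1 in place of 2 with only the compared groups. Without Peyer's patch capillary arrays 2 and 3, 8 members in place of 28 were higher in Peyer's patches (3.5% of all genes).

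The tissue interactions and contrasts within a cell type rested on few calls. Peyer's patches minus peripheral nodes gave 0 in place of 1 with the replicate block, the range filter, without peripheral capillary arrays 1 and 2 and without Peyer's patch capillary arrays 2 and 3, 10 with array weights (which called 32.3% of all genes there), and 0 to 4 with 1 array left out. Peyer's patches minus mesenteric nodes gave 1 in place of 0 with weights (8.54% of all genes). Peyer's patch against peripheral HEC gave 4 in place of 7 with repeated quantile normalization, 30 with weights (56.2% of all genes), 2 with only the compared groups, and 4 to 15 with 1 array left out. Peyer's patch against mesenteric HEC gave 0 in place of 2 with the replicate block, without peripheral capillary arrays 1 and 2 and with only the compared groups, 1 with the range filter, 24 with weights (35.8% of all genes), and 0 to 8 with 1 array left out. Mesenteric against peripheral HEC gave 2 in place of 0 with weights (6.01% of all genes). Peyer's patch against peripheral capillary cells gave 1 in place of 0 with repeated quantile normalization and in the restricted fit, and 3 with weights (7.6% of all genes), and Peyer's patch against mesenteric capillary cells 1 in place of 0 with weights (3.96% of all genes). The other contrasts, and leaving out 1 array in those with 0 calls, gave 0. The cause of these moves was not tested.

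Samples with the same number deviated together with correlations of -0.20 to 0.38 in peripheral nodes (3 pairs) and -0.40 to 0.07 in Peyer's patches (3 pairs). In mesenteric nodes the correlation was 0.44. The 2 pairs there hold 1 value, because 2 arrays deviate from their mean as mirror images. These values do not settle whether the numbers pair the samples, and the main fit did not pair them. With the replicate block 40 members were higher and 3 lower over the tissues, 28 and 3 in Peyer's patches, 30 and 2 in mesenteric nodes and 34 and 1 in peripheral nodes, and Peyer's patch against peripheral HEC gave 5.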
